A study of Mus musculus with 10 samples.

Results

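Chemokines are small secreted or membrane-bound proteins, and together with their receptors they formed a set of 50 genes among the 24608 gene symbols counted in muscle stem cells (MuSCs, also called satellite cells) sorted 3 days after muscle injury. The set was defined by symbol alone: rows named Ccl, Cxcl, Cx3cl1, Xcl1, Pf4 and Ppbp were taken as ligands, and rows named Ccr, Cxcr, Cx3cr1, Xcr1, Ackr and Ccrl2 as receptors, with Cxcr4 left out. It held 35 ligands, of which 1, Ccl19-ps1, is a pseudogene, and 15 receptors. Libraries were prepared from 5 control and 5 Trpm7 conditional knockout (cKO) samples, each made from 3000 sorted cells. Trpm7 encodes a channel-kinase that conducts magnesium and calcium. Control mice were Trpm7+/+; Pax7CreERT2/+; Rosa26YFP and cKO mice were Trpm7flox/flox; Pax7CreERT2/+; Rosa26YFP, all adult and on a C57BL6 background, and per the study's methods males and females were used in about equal numbers. Animals of both genotypes carried the tamoxifen-inducible Cre and the YFP reporter, received tamoxifen (TMX), and were injured with cardiotoxin (CTX), a snake venom toxin that destroys myofibers. The Cre is driven by Pax7, so deletion and YFP labelling take place only in cells that expressed Pax7 when TMX was given. MuSCs were collected as YFP-positive cells.

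Chemokines bind membrane receptors that signal through inhibitory G proteins, and cells move along the gradients that they form. CC ligands such as CCL2 draw monocytes through CCR2, CXC ligands such as CXCL1 and CXCL2 draw neutrophils through CXCR2, and CXCL9, CXCL10 and CXCL11 draw activated T and NK cells through CXCR3. Atypical receptors (the Ackr genes and Ccrl2) bind ligands without this signal and scavenge or present them. In injured muscle, chemokines are made by macrophages, endothelial and mesenchymal cells and by MuSCs themselves, and CCR2-dependent monocytes are needed for regeneration.

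Control libraries held 914361 to 1097709 counts and Trpm7 cKO libraries 205986 to 581121, without overlap (p = 0.00794 in a two-sided exact permutation test, which cannot go lower with 5 against 5). Trpm7 itself was counted 66 to 84 times in control and 10 to 55 times in cKO libraries and did not pass the test between genotypes (log2 fold change -0.09, SE 0.20, edgeR adjusted p = 0.723). Counts come from the 3′ end of transcripts, and the position of the floxed exon is not given in the sources used here, so this value does not check the deletion. Pax7, the defining transcription factor of MuSCs, was counted 167 to 224 times in control and 101 to 296 times in cKO libraries. Of 13 tested MuSC markers, 6 rose and 3 fell at the adjusted p, where 24.6% of all genes tested rose and 24.1% fell. The 6 that rose were Chodl (log2 fold change 3.49), Pax7 (1.19), Megf10 (0.84), Myf5 (0.81), Spry1 (0.72) and Sdc4 (0.46). The 3 that fell were Myod1 (log2 fold change -2.01) and Myog (-1.999), the determination and differentiation factors of the lineage, and Itga7 (-0.59). Many markers of other cells differed by genotype too. All 21 macrophage and monocyte markers had counts, and the 19 tested all rose. Some of the 19, such as Adgre1 with at most 5 counts in any control library, were tested only because they were high in cKO libraries. Their rise was therefore close to fixed in advance, and nothing is read from that count. The summed level of all 21 was 398 to 662 normalized CPM (counts scaled to a common library total with TMM factors) in control and 1498 to 6609 in cKO libraries. Among the cKO libraries this sum was lowest in replicate 2 and highest in replicates 4 and 5, at 6609 and 5982. Summed endothelial markers stood at 5.36 to 56.7 normalized CPM in control and 105 to 579 in cKO libraries. Fibroadipogenic (stromal) markers stood at 993 to 2057 and at 1597 to 3871, ranges that overlapped, and 4 of the 5 tested rose. Col3a1 did not pass the test (log2 fold change 0.30, SE 0.29, edgeR adjusted p = 0.426). Of 7 dendritic markers 2 were tested, H2-Aa and Cd74, and both rose (1.67 and 3.73). Of 6 mural markers 2 were tested, Rgs5 and Notch3, and both rose (3.49 and 0.80). The part that these cells played in the chemokine values was not tested, and in bulk samples fewer cells of a type cannot be told apart from less RNA per cell. The labels of cKO replicates 4 and 5 share a number whose meaning is not given, and nothing in them states that libraries came from separate animals, so p-values measure the spread between these libraries.

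Of the 50 genes, 2 (Ccl1 and the pseudogene Ccl19-ps1) had no count in any library, 16 had 1 to 9 counts over all libraries, 16 had 10 or more but missed the filter on low counts, and 16 passed it and were tested, 13 ligands and 3 receptors. A gene was called at an adjusted p below 0.05 with a log2 fold change beyond 1.5 in the quasi-likelihood test of edgeR, with p-values adjusted by Benjamini-Hochberg over all 7753 genes tested. All 13 tested ligands and 2 of the 3 tested receptors rose in the Trpm7 cKO libraries, and 0 members fell. Among all genes tested, 8.49% were called higher and 3.53% lower. At the adjusted p alone the members gave the same 15 and 0, where 24.6% of all genes were higher and 24.1% lower. The median log2 fold change was 3.54 for the tested ligands, 3.05 for the tested receptors and -0.006 for all genes. Normalized counts of 14 of the 16 did not overlap between genotypes, all with cKO higher, where 16.6% of all genes had every cKO library above every control library and 17.9% had every cKO library below.

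These counts depend on which genes could be tested. A gene passed the filter when at least 5 libraries reached 13.4 CPM. For 6 of the 16 members (Ccl6, Ccl8, Ccl9, Cxcl3, Ccr2 and Ccrl2) no control library reached that level, so they were tested only because they were high in cKO libraries, and 88.3% of the 239 genes tested on that footing were called higher. Of the 7466 genes that reached the level in at least 1 library of each genotype, 5.99% were called higher. The other 10 members were in that class (Ccl2, Ccl4, Ccl7, Cxcl1, Cxcl2, Cxcl10, Cxcl12, Cx3cl1, Pf4 and Ackr3), and 9 of them, all but Ackr3, were called higher. That class is not free of the same limit. Ccl4 reached the level in 1 control library, Cx3cl1 and Cxcl10 in 2 each and Pf4 in 4, so they needed cKO libraries to pass. Ccl2, Ccl7, Cxcl1, Cxcl2, Cxcl12 and Ackr3 reached it in all 5 control libraries.

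**Figure D1:**
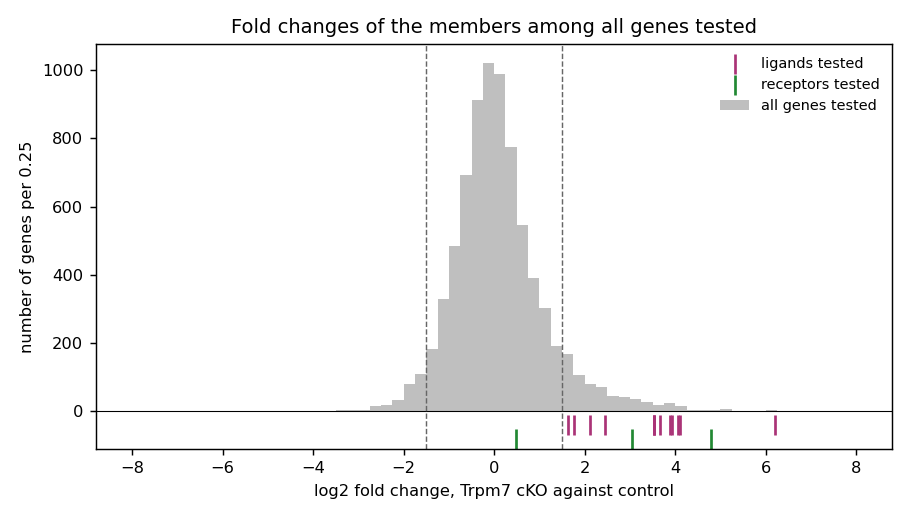
Number of genes (vertical axis) in each log2 fold change bin of 0.25 (horizontal axis, Trpm7 cKO against control) for all 7753 genes tested, with the 13 tested ligands and 3 tested receptors as ticks below and dashed lines at 1.5 in either direction. The ligands lie between 1.63 and 6.21, and the receptor tick to the left of the right-hand line is Ackr3, at 0.48.

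The CC ligands that bind CCR2 include the monocyte attractants CCL2, CCL7 and CCL12, and CCL8, which in the mouse also binds CCR8. Ccl2 was counted 33, 42, 29, 32 and 35 times in control replicates 1 to 5 and 238, 207, 118, 235 and 80 times in Trpm7 cKO replicates 1 to 5. Normalized, its level was 36.0 ± 5.57 CPM in control and 417 ± 29.1 CPM in cKO libraries (SD, n = 5 each), an 11.6-fold difference (log2 fold change 3.52, SE 0.15, edgeR adjusted p = 2.66e-12). Every cKO library lay above every control library, even in raw counts and despite the smaller cKO libraries. Ccl7 was counted 27, 18, 18, 24 and 25 times in control and 153, 171, 70, 200 and 59 times in cKO libraries. It went from 23.6 ± 4.55 to 302 ± 32.0 normalized CPM (SD, n = 5 each), a log2 fold change of 3.67 (SE 0.17, edgeR adjusted p = 4.63e-12), again without overlap in raw counts. Among the cKO libraries both genes held a narrow range, 381 to 441 normalized CPM for Ccl2 and 256 to 331 for Ccl7, while the summed macrophage markers ran from 1498 to 6609. The count ratio of Ccl2 to Ccl7 was 1.22 to 2.33 in control and 1.18 to 1.69 in cKO libraries, so the pair kept overlapping proportions.

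Ccl8 was the ligand with the highest fold change of those tested. A total of 1 count, in control replicate 3, stood against 14, 13, 6, 16 and 11 counts in the cKO libraries. With so few control counts the fitted log2 fold change of 6.21 (SE 0.59, edgeR adjusted p = 1.04e-07) depends on the fit's prior count. The ratio of group counts, each divided by the group's normalized total, was 133, with a 95% counting interval of 23.1 to 5358. Ccl12 did not pass the filter. It had 0, 3, 2, 1 and 3 counts in control and 15, 5, 3, 26 and 6 in cKO libraries, or 1.94 ± 1.45 and 24.8 ± 14.5 normalized CPM (SD, n = 5), and the genotypes did not overlap on that scale. Per 1000 macrophage marker counts, Ccl2 (59.1 to 80.8 in control, 58.9 to 254 in cKO) and Ccl7 (33.0 to 60.6 and 50.1 to 210) overlapped between genotypes. Ccl8 (0 to 2.04 and 4.01 to 15.97) did not overlap. With 1 control count it was tested only because it was high in cKO libraries, so nothing is read from this contrast.

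A further group of CC ligands acts through receptors such as CCR1 and CCR3 on monocytes, macrophages, T cells and eosinophils. Ccl9 and Ccl6, rodent ligands of CCR1, had similar values. Ccl9 was counted 5, 8, 3, 5 and 8 times in control and 42, 22, 23, 79 and 27 times in cKO libraries. It rose from 6.15 ± 2.52 to 96.4 ± 43.6 normalized CPM (SD, n = 5), a log2 fold change of 3.88 (SE 0.35, edgeR adjusted p = 8.96e-08). The counts of Ccl6 were 2, 9, 6, 7 and 6 in control and 50, 28, 16, 84 and 30 in cKO libraries, a log2 fold change of 3.92 (SE 0.36, edgeR adjusted p = 1.60e-07). Neither gene overlapped between genotypes, and the lowest cKO value of each on the normalized scale was that of replicate 2. Of the last 500 transcript bases, 6.8% of Ccl9 and 9.6% of Ccl6 matched another gene over 31 bases, Gm33246 and Slc17a4 respectively, so a small share of reads could be assigned with doubt.

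Ccl4, made by activated macrophages and lymphocytes, was the tested ligand whose genotypes overlapped. Its counts were 6, 13, 10, 2 and 5 in control and 42, 6, 16, 81 and 38 in cKO libraries. On the normalized scale it ranged from 2.01 to 13.4 CPM in control and from 11.04, in cKO replicate 2, to 210, in cKO replicate 5. The log2 fold change was 3.54 with a wide error (SE 0.69, edgeR adjusted p = 0.00151). Without cKO replicates 4 and 5, a choice made after the data were seen, it was 2.61 (SE 0.59, edgeR adjusted p = 0.00357). Ccl3, its neighbour and close relative, missed the filter with 2, 1, 0, 3 and 3 counts in control and 9, 1, 5, 26 and 4 in cKO libraries. There cKO replicate 2 again lay inside the control range, at 1.84 normalized CPM against 0 to 3.47.

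Ccl11 (eotaxin), which attracts eosinophils through CCR3, had 3, 5, 0, 4 and 4 counts in control and 24, 16, 10, 11 and 2 in cKO libraries, or 3.36 ± 2.04 and 27.9 ± 13.5 normalized CPM (SD, n = 5), without overlap on that scale. Its order among the cKO libraries was not that of Ccl4, since the lowest values were in replicates 5 and 4. Ccl5 (RANTES), a T cell and macrophage product, behaved otherwise. It was counted 13, 10, 9, 9 and 6 times in control and 7, 19, 9, 6 and 1 times in cKO libraries, and at 5.52 to 34.97 normalized CPM the cKO libraries spanned the control range of 6.95 to 12.9. In the fit without a filter its log2 fold change was 0.79 (SE 0.37, edgeR adjusted p = 0.109). Summed T and NK cell markers stood at 0.994 to 4.02 normalized CPM in control and 1.84 to 27.6 in cKO libraries. Ccl24 had 0 counts in control and 2 in cKO libraries.

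Among the remaining CC ligands, which guide lymphocytes to lymphoid organs, skin and gut, no gene could be tested. Ccl25, the ligand of CCR9, was the member whose raw counts were all lower in cKO libraries, at 7, 10, 12, 13 and 11 in control and 5, 5, 0, 2 and 0. After normalization the ranges, 6.96 to 13.0 and 0 to 9.24 CPM, overlapped (without a filter, log2 fold change -1.18, SE 0.50, edgeR adjusted p = 0.0626). Ccl17, a CCR4 ligand, had 0, 0, 0, 0 and 2 counts in control and 4, 11, 0, 0 and 1 in cKO libraries, a ratio of 17.8 with a 95% counting interval of 4.18 to 160, which rests on replicates 1 and 2. Ccl19, Ccl22, Ccl27a and Ccl28 had 2 to 8 counts each over all libraries. Nearly the whole 3′ end of Ccl27a (98.8% of the last 500 bases) is shared with Ccl27b and other copies, so its 8 counts are uncertain.

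**Figure D2:**
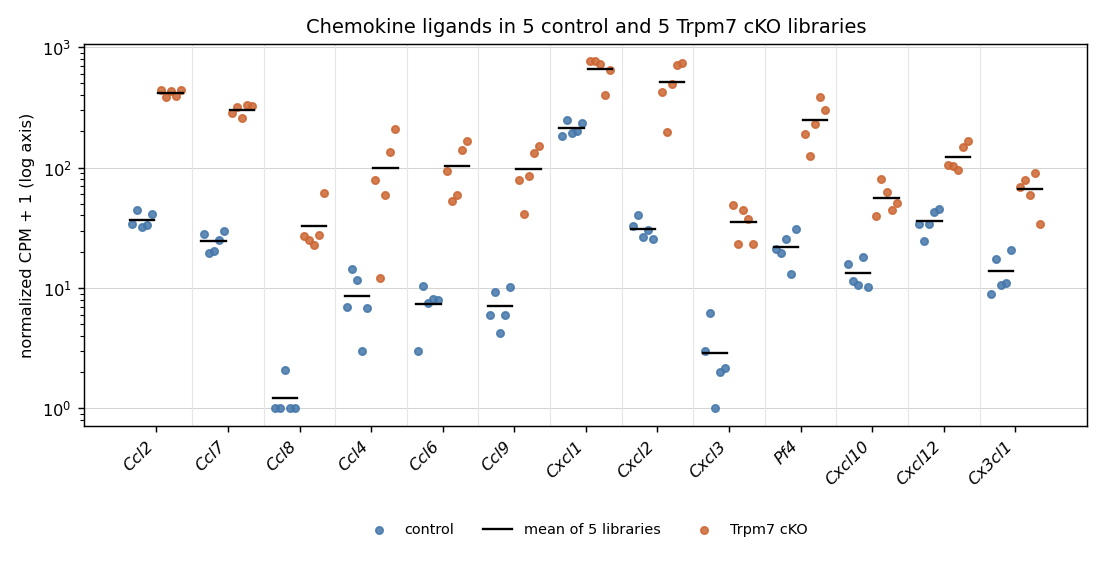
Normalized CPM plus 1 on a log axis for the 13 tested ligands, with a point for each of the 5 control and 5 Trpm7 cKO libraries and a bar at the mean of each group. Ccl4 is the ligand whose groups overlap, and Ccl2 and Ccl7 have the tightest cKO points, between 381 and 441 and between 256 and 331 normalized CPM.

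The CXC ligands of CXCR2, a family of neutrophil attractants, contained the ligands with the most counts. Cxcl1 was counted 184, 241, 181, 199 and 200 times in control and 412, 413, 199, 241 and 116 times in cKO libraries, so raw counts overlapped. Normalized to CPM, it rose from 211 ± 27.6 to 658 ± 153 (SD, n = 5), a 3.11-fold difference (log2 fold change 1.63, SE 0.17, edgeR adjusted p = 3.26e-07) without overlap. This was the smallest fold change of the tested ligands. Cxcl2 went the same way by a larger step, from 32, 38, 24, 29 and 21 counts in control to 229, 107, 135, 429 and 134 in cKO libraries. At 30.04 ± 5.92 and 513 ± 223 normalized CPM (SD, n = 5) the difference was 17.1-fold (log2 fold change 4.06, SE 0.33, edgeR adjusted p = 4.90e-07). Cxcl3 had 2, 5, 0, 1 and 1 counts in control and 26, 12, 12, 22 and 4 in cKO libraries (log2 fold change 4.10, SE 0.45, edgeR adjusted p = 5.77e-07).

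The proportion between Cxcl1 and Cxcl2 differed by genotype. For each Cxcl1 count there were 0.105 to 0.174 Cxcl2 counts in control and 0.259 to 1.78 in cKO libraries, without overlap. In cKO replicates 4 and 5, Cxcl2 outnumbered Cxcl1, at ratios of 1.78 and 1.16, and Cxcl1 had its lowest cKO level in replicate 4, at 399 normalized CPM. Per 1000 macrophage marker counts, Cxcl2 stood at 36.7 to 73.2 in control and 107.5 to 133 in cKO libraries, a range without overlap, while Cxcl1 ran from 350 to 502 and from 60.4 to 507. The untested ligands of CXCR2 were Cxcl5, with 1, 1, 3, 1 and 0 counts in control and 11, 13, 6, 13 and 2 in cKO libraries, Cxcl15, with 1 count in all, and Ppbp, described with Pf4. Cxcl5 (LIX) did not overlap on the normalized scale, at 0 to 3.22 and 11.04 to 23.9 CPM.

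Promoter sequence was compared for these neutrophil attractants and for Cxcl10, because inflammatory transcription factors of the NF-kB and interferon pathways are known to act close to the start sites of these genes. RefSeq promoter windows of GRCm38.p6, from 250 bases before to 50 after the start, matched 37 members. An NF-kB-like motif was searched as GGG, any 3 bases and TTCC on either strand, and an interferon response motif as GAAA, any 2 bases and GAAA. The forms were settled after several had been looked at. The first stood in 5.56% of 32851 promoters and in 6 of the 37 members (Ccl1, Ccl9, Cxcl1, Cxcl2, Cxcl3 and Cxcl10), and the second in 3.44% of promoters and 3 members (Ccl19, Cxcl10 and Cxcl14). The AP-1 letters TGANTCA (7.81% of promoters) were found in 6 members and the letters TATAAA (13.6%) in 13, on either strand. The 250 bases before the start are printed below 5′ to 3′ on the gene's strand, with matches to the NF-kB-like and interferon motifs in capitals. They lie at chr5:90890995-90891244, chr5:90903649-90903898 and chr5:90785851-90786100 on the plus strand for Cxcl1, Cxcl2 and Cxcl3, and at chr5:92348890-92349139 on the minus strand for Cxcl10.
Cxcl1: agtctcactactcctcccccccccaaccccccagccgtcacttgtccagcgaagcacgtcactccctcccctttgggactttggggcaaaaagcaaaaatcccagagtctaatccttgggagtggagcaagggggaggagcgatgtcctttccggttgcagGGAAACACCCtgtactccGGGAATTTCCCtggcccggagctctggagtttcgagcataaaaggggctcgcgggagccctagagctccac
Cxcl2: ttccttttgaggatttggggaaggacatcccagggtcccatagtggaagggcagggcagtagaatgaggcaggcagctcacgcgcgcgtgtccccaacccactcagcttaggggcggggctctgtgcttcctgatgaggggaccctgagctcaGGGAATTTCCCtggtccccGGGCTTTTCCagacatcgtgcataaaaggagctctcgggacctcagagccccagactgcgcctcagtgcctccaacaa
Cxcl3: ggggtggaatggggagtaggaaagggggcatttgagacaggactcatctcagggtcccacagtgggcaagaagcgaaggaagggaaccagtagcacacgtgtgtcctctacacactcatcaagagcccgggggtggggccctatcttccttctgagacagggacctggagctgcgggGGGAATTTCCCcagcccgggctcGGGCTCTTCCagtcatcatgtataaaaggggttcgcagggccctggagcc
Cxcl10: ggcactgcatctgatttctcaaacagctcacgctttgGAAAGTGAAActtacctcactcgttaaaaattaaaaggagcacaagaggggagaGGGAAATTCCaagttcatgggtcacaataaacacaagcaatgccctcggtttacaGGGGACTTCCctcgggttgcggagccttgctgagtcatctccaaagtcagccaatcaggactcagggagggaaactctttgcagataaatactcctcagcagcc

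The run GGGAATTTCCC stood in the Cxcl1, Cxcl2 and Cxcl3 windows, beginning at positions -71, -97 and -73 relative to the start. It reads as a match on both strands, which overlap. The Cxcl2 and Cxcl3 windows held a further match, at -78 and -50, and Cxcl1 had its further match at -89, on the minus strand. Cxcl10 carried GGGAAATTCC and GGGGACTTCC at -159 and -104, and was the tested member with the interferon letters, as GAAAGTGAAA at -213. These are letters in a window and carry no measurement of binding. Of the 13 tested members with a promoter in the table, 5 had the NF-kB-like letters (Ccl9, Cxcl1, Cxcl2, Cxcl3 and Cxcl10), with log2 fold changes from 1.63 to 4.10.

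Platelet factor 4 (Pf4, CXCL4) and pro-platelet basic protein (Ppbp, the precursor of CXCL7, a CXCR2 ligand) are stored in platelet granules, and Pf4 is also transcribed by macrophages. Pf4 was counted 20, 18, 23, 12 and 26 times in control and 103, 67, 63, 233 and 54 times in cKO libraries, without overlap. It rose 11.7-fold, from 21.1 ± 6.77 to 246 ± 101 normalized CPM (SD, n = 5; log2 fold change 3.53, SE 0.30, edgeR adjusted p = 2.13e-07). Within the cKO group replicate 2 was lowest and replicates 5 and 4 highest, as for the summed macrophage markers, and per 1000 macrophage marker counts Pf4 stood at 30.3 to 46.8 in control and 49.8 to 82.3 in cKO libraries. Ppbp had 0 counts in all control libraries and 11, 12, 2, 6 and 0 in cKO libraries, or at least 23.0-fold more when the control group is set to a floor of 3 counts in all. Of 6 platelet markers, 4 were in the table, Gp9 and Treml1 were at 0, and the sum reached at most 10.96 normalized CPM in any library.

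The interferon-inducible ligands of CXCR3 were at low counts. Cxcl10 was counted 15, 10, 9, 17 and 8 times in control and 21, 43, 17, 26 and 9 times in cKO libraries. It rose from 12.2 ± 3.52 to 54.6 ± 16.3 normalized CPM (SD, n = 5; log2 fold change 2.12, SE 0.27, edgeR adjusted p = 2.67e-06), with the highest value in cKO replicate 2, the cKO library lowest in macrophage markers. Its 3′ end overlaps Art3 on the other strand, and the strand setting of the counting is not given in the sources used here. Cxcl9 had 1, 1, 0, 3 and 2 counts in control and 3, 2, 4, 7 and 9 in cKO libraries. Cxcl11, a polymorphic pseudogene in the GENCODE annotation, had 2 counts in control and 7, 7, 1, 0 and 1 in cKO libraries, and 27.8% of its 3′ end matched other genes.

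Cxcl12, a ligand of CXCR4 and ACKR3 that retains stem and progenitor cells in their niches, was counted 33, 23, 31, 42 and 38 times in control and 56, 55, 26, 88 and 30 times in cKO libraries. Normalized, it rose 3.47-fold, from 35.2 ± 8.16 to 122 ± 31.5 CPM (SD, n = 5; log2 fold change 1.77, SE 0.20, edgeR adjusted p = 9.66e-07), without overlap. Cxcl14, which is made by many stromal cells, had 1, 3, 2, 1 and 0 counts in control and 5, 6, 6, 19 and 8 in cKO libraries and did not overlap even in raw counts. The membrane-anchored ligands bind cells as well as attract them. Cx3cl1 (fractalkine), the ligand of CX3CR1, had 8, 16, 9, 10 and 17 counts in control and 37, 42, 16, 54 and 6 in cKO libraries, a log2 fold change of 2.45 (SE 0.27, edgeR adjusted p = 6.52e-07). Cxcl16, the ligand of CXCR6, had 4, 1, 1, 1 and 2 counts in control and 18, 5, 17, 24 and 10 in cKO libraries, again without overlap of raw counts. Xcl1 and Cxcl13 had 8 and 3 counts in all.

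**Figure D3:**
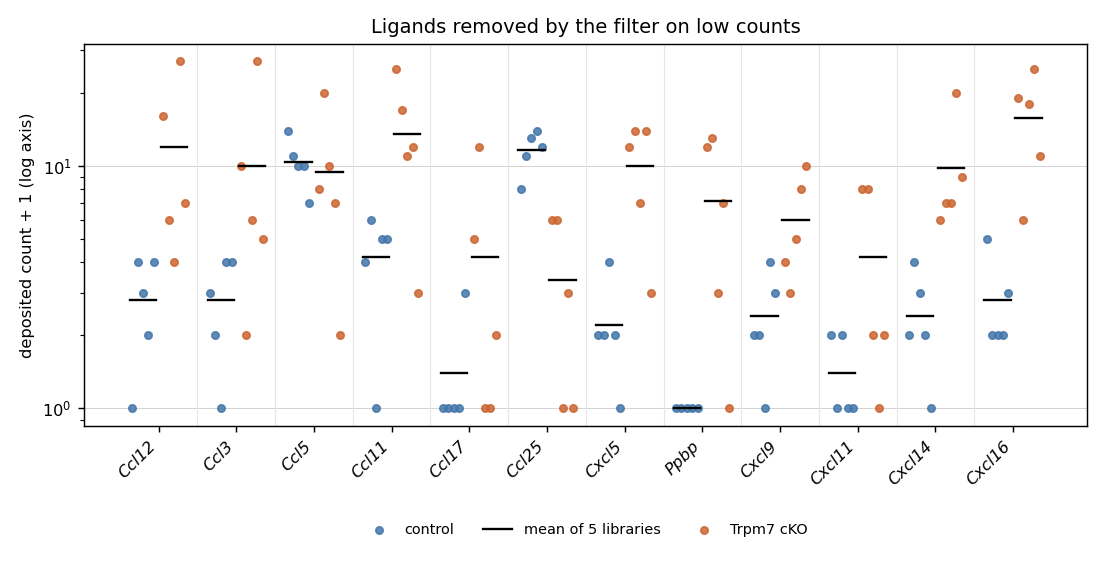
Deposited counts plus 1 on a log axis for the 12 ligands with at least 10 counts that missed the filter, a point for each library and a bar at the mean of 5. Ccl25 has lower raw counts in all 5 Trpm7 cKO libraries, Ccl5 counts run from 6 to 13 in control and from 1 to 19 in cKO libraries, and Ppbp is at 0 in every control library.

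Without a filter on low counts, a fit of 21914 genes gave 32 further members a value. Of these, 12 passed an adjusted p below 0.05, all higher (Ccl3, Ccl11, Ccl12, Ccl17, Cxcl5, Cxcl9, Cxcl11, Cxcl14, Cxcl16, Ppbp, Ccr1 and Cx3cr1), and 0 were lower, where 13.1% of all genes in that fit were higher and 12% lower.

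Of the receptors, 7 had at least 10 counts over all libraries, and Ccr2 had the highest fold change of the 3 tested. Ccr2, the receptor of CCL2 and a marker of inflammatory monocytes, was counted 2, 5, 1, 1 and 2 times in control and 29, 14, 29, 63 and 10 times in cKO libraries. At 2.31 ± 1.69 and 69.0 ± 35.1 normalized CPM (SD, n = 5) it rose 29.9-fold (log2 fold change 4.78, SE 0.46, edgeR adjusted p = 2.57e-07), without overlap in raw counts. Ptprc (CD45), the common leukocyte antigen, was counted 4 to 15 times in control and 10 to 59 times in cKO libraries. For each Ptprc count there were 0.25 to 0.333 Ccr2 counts in control and 0.936 to 2.23 in cKO libraries, without overlap. Ccr2 was tested only because it was high in cKO libraries, so nothing is read from this lack of overlap.

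Ccr1, the receptor of CCL6 and CCL9, missed the filter with 0, 1, 1, 2 and 1 counts in control and 12, 7, 3, 11 and 2 in cKO libraries, at 1.05 ± 0.71 and 15.1 ± 4.96 normalized CPM (SD, n = 5) without overlap. Cx3cr1, a receptor of resident macrophages and monocytes, had 3, 2, 0, 0 and 0 counts in control and 2, 2, 4, 10 and 5 in cKO libraries, and 27.6% of its 3′ end matched other genes. Xcr1, a receptor of cross-presenting dendritic cells, had 4, 1, 1, 2 and 3 counts in control and 0, 1, 1, 1 and 0 in cKO libraries (without a filter, log2 fold change -0.82, SE 0.95, edgeR adjusted p = 0.516). Ccr7, Ccr9, Ccr10, Cxcr2, Cxcr3, Cxcr5 and Cxcr6 had 1 to 6 counts each over all libraries. For Cxcr2, the receptor of the neutrophil attractants, the total was 1 count. The neutrophil marker sum was 0 to 3.10 normalized CPM in control and 5.52 to 49.7 in cKO libraries, and 3 of the 7 neutrophil markers are not listed in the table.

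The atypical receptors differed from each other. Ccrl2, which binds chemerin, was counted 3, 12, 2, 2 and 3 times in control and 17, 20, 10, 24 and 12 times in cKO libraries and rose (log2 fold change 3.05, SE 0.39, edgeR adjusted p = 2.99e-06). Normalized values did not overlap, at 2.01 to 12.4 and 31.4 to 66.2 CPM. Ackr3, a scavenger of CXCL12 that is expressed by non-hematopoietic cells, had the most counts of any receptor in the set, at 45, 56, 41, 36 and 50 in control and 49, 38, 25, 18 and 11 in cKO libraries. On the normalized scale it was 48.1 ± 9.51 and 68.5 ± 25.3 CPM (SD, n = 5), which did not pass the test (log2 fold change 0.48, SE 0.25, edgeR adjusted p = 0.114), and the groups overlapped because cKO replicate 4 lay below every control library at 29.8. Without that library the log2 fold change was 0.71 (SE 0.20, edgeR adjusted p = 0.00621) and stayed under the fold threshold of 1.5. Ackr1, the Duffy antigen of venules and red cells, had 0, 0, 0, 9 and 10 counts in control and 3, 0, 1, 16 and 1 in cKO libraries, with no order by genotype. Ackr4 had 1 count.

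**Figure D4:**
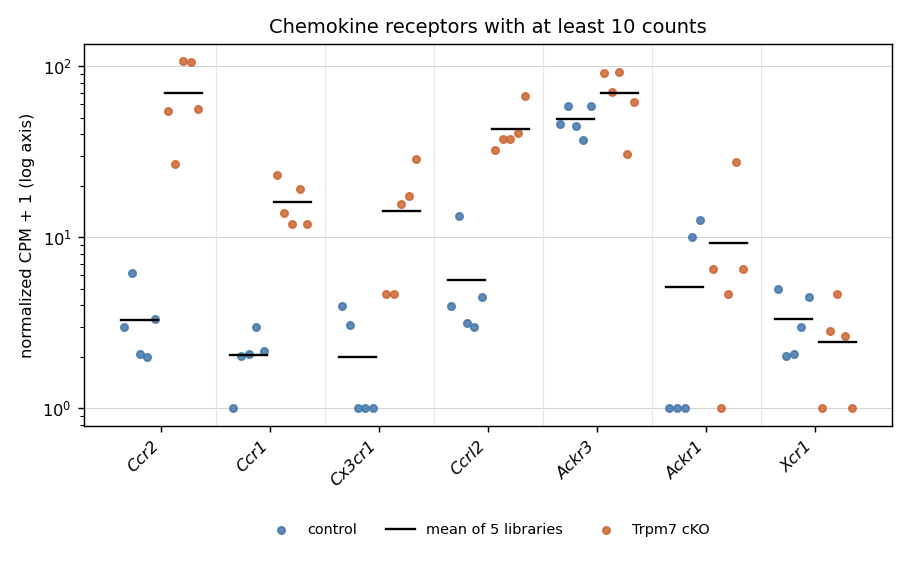
Normalized CPM plus 1 on a log axis for the 7 receptors with at least 10 counts, a point for each of 5 control and 5 Trpm7 cKO libraries and a bar at the group mean. Ccr2 lies at 1.00 to 5.16 in control and 25.8 to 106 in Trpm7 cKO libraries, whereas Ackr3, Ackr1 and Xcr1 overlap between genotypes.

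Counts of all ligands together made up 0.0420% ± 0.00592 of a control library and 0.290% ± 0.0364 of a cKO library (SD, n = 5 each), without overlap. The make-up of this pool of counts also differed, as shares of counts and not as levels per transcript length. Cxcl1 took 45.5% to 50.5% of ligand counts in control and 12.5% to 32.0% in cKO libraries. The shares of Cxcl2 (4.94% to 7.97% and 8.29% to 22.2%), Ccl2 (7.64% to 8.81% and 12.2% to 16.03%) and Ccl7 (3.77% to 6.68% and 8.92% to 13.3%) were higher in every cKO library than in every control library, and that of Pf4 overlapped (2.86% to 6.13% and 5.19% to 12.1%). Together these 5 genes held 70.6% to 74.8% of ligand counts in control and 68.4% to 74.7% in cKO libraries, ranges that overlapped.

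Within the Trpm7 cKO group, the ligands did not share an order of libraries. Replicate 2, with the lowest macrophage marker sum of the cKO group (1498 normalized CPM against at most 662 in control), had the lowest values of Ccl9, Ccl6, Ccl4, Pf4, Cxcl2 and Ccr2, at 40.5, 51.5, 11.04, 123, 197 and 25.8 normalized CPM. In the same library Ccl7, Cxcl1 and Cx3cl1 stood at 315, 760 and 77.3 normalized CPM, inside the range of the other cKO libraries, Ccl2 at 381 lay just under the next value of 389, and Cxcl10 had its highest value, 79.1. Per 1000 macrophage marker counts, 5 of the 16 tested members were higher in every cKO library than in every control library (Ccl8, Ccl9, Cxcl2, Pf4 and Ccr2), where 0.245% of all genes tested were. Ccl8, Ccl9 and Ccr2 were tested only because they were high in cKO libraries, so nothing is read from this share. Ccr2 met the condition by a small margin, at 9.17 in the highest control and 9.23 in the lowest cKO library. Ackr3 was lower (83.5 to 103 and 4.51 to 46.7), where 84.9% of all genes were, and the other 10 overlapped.

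The sizes of the fold changes depend on the scale, because cKO libraries were smaller. Counted per 3000 sorted cells, with no correction for library size, all genes had a median log2 fold change of -1.15, and 7.62% of called genes were higher in place of 70.6%. On that scale 9 ligands and 2 receptors were still called higher, where 203 of all 7753 genes tested were. Cxcl1 (0.46, SE 0.38, edgeR adjusted p = 0.259) and Cxcl12 (0.61, SE 0.38, edgeR adjusted p = 0.138) no longer passed the test, and Ackr3 changed sign (-0.69, edgeR adjusted p = 0.0938). Scaled on the geometric mean of the MuSC markers, the median of all genes was -0.47 and 34.9% of called genes were higher. With that scaling 11 ligands and 2 receptors were called higher, where 395 of all 7753 genes tested were. Cxcl1 and Cxcl12 then had log2 fold changes of 1.11 and 1.37. Ccl2, Ccl7, Ccl8, Ccl4, Ccl6, Ccl9, Cxcl2, Cxcl3, Pf4, Ccr2 and Ccrl2 stayed above 1.5 under each of the 3 scalings.

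**Figure D5:**
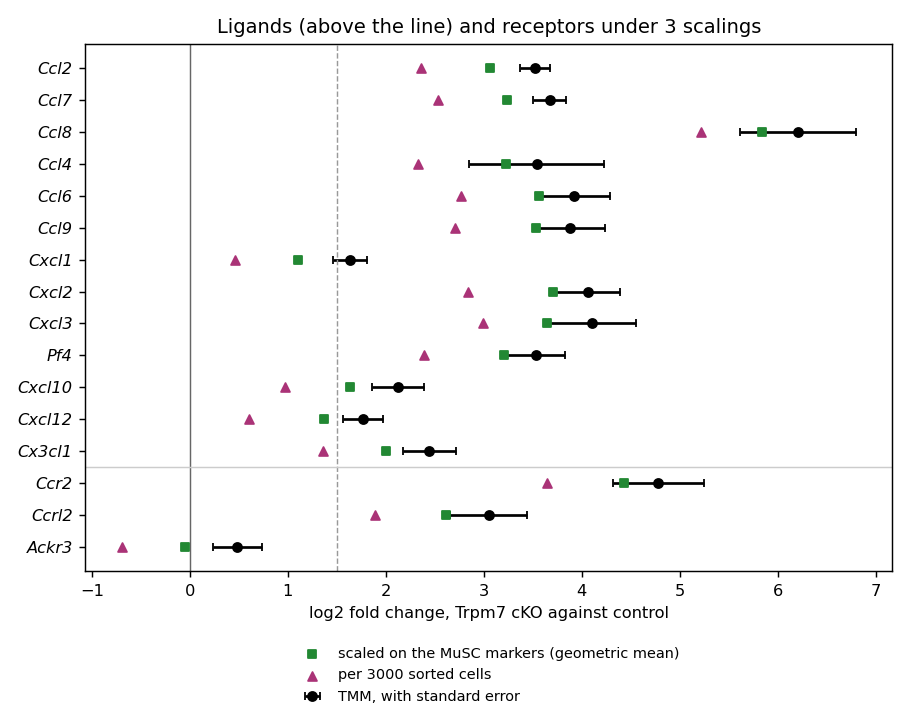
Log2 fold change, Trpm7 cKO against control (horizontal axis), of the 13 tested ligands and, under the line, 3 receptors, as black points with standard errors for the scaling by trimmed mean of M-values (TMM), green squares for scaling on MuSC markers and purple triangles per 3000 sorted cells; the dashed line is at 1.5. Ackr3 crosses 0, at 0.48, -0.054 and -0.69, and Ccl2 keeps 3.52, 3.07 and 2.36.

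Most tested ligands lie in a few gene clusters. On chr11:82035571-82305690 (GRCm38, GENCODE positions) Ccl2, Ccl7 and Ccl8 of 6 members were tested and called, with log2 fold changes from 3.52 to 6.21. The neighbouring cluster at chr11:83525778-83664683 holds Ccl5, Ccl9, Ccl6, Ccl3 and Ccl4, and its 3 tested members lay between 3.54 and 3.92, while Ccl5 at its end overlapped between genotypes. At chr5:90759360-90905938, Pf4, Cxcl3, Cxcl1 and Cxcl2 of 7 members were tested, with values from 1.63 to 4.10. Within it the neighbours Cxcl1 and Cxcl2, on the same strand, had log2 fold changes of 1.63 and 4.06. Ccl8, Ccl9, Ccl6 and Cxcl3 were tested only because they were high in cKO libraries, and Ccl4 reached the filter level in 1 control library. Nothing is therefore read from the shared direction within a cluster. Among all genes tested, 8.49% were called higher.

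Genes that carry the signal or handle the ligands were read from lists drawn up for this set. Of 30 chemokine receptor signalling genes, 19 were tested, 8 rose and 4 fell at the adjusted p, where 24.6% of all genes tested rose and 24.1% fell, and the median log2 fold change of the list was 0.36. The highest were Rgs1, a brake on G protein signalling in leukocytes (3.89), Elmo1, a partner of the Rac activator DOCK2 (2.27), and Prex1, a Rac activator downstream of G proteins (1.93). Rgs1 and Prex1 had at most 10 and 12 counts in any control library. They were tested only because they were high in cKO libraries. Elmo1, with a median of 7 and at most 13 counts in control libraries, also needed its cKO libraries to pass the filter. Nothing is therefore read from the place of these genes at the top. The lowest were the kinase Ptk2b (-0.91) and the GTPases Cdc42 (-0.60) and Rac1 (-0.48). Of 8 ligand-processing proteases, 5 were tested, 2 rose, the matrix metalloproteinases Mmp14 (3.37) and Mmp2 (0.96), and 0 fell. Mmp14, with at most 12 counts in any control library, was likewise tested only because it was high in cKO libraries. Of 11 genes for heparan sulfate carriers, which hold chemokines at the cell surface, 8 were tested. Among them Ext1 (1.17) and Sdc4 (0.46) rose and Sdc1 (-0.55) and Hs2st1 (-0.45) fell, shares like those of all genes, with a median of 0.06.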

How the data were processed

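RNA from 3000 sorted YFP-positive MuSCs per library was read at the 3′ end by CEL-Seq2, whose unique molecular identifiers (UMIs) mark molecules. Per the study's methods and the submitters' processing notes, the authors extracted barcodes and UMIs (UMI-tools 1.1.4), trimmed reads and discarded those under 20 bp (Trim Galore 0.6.10), aligned them to GRCm38 (HISAT2 2.2.1), counted them on genes (featureCounts 2.0.6) and removed UMI duplicates. The deposited table holds whole-number counts without normalization, in 24620 entries under 24608 symbols, of which the entry with the larger total was kept. The annotation release and strand setting are not given in the sources used here.

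Analysis was done in R 4.3.3 with edgeR 4.0.16: filterByExpr (minimum count 10, minimum total 15), TMM factors, a robust quasi-likelihood F test across 7753 genes with genotype as the only term, and Benjamini-Hochberg adjustment. A call needed an adjusted p below 0.05 and a log2 fold change beyond 1.5, the thresholds of the study's methods. Standard errors are the log2 fold change divided by the root of F. Depth ran from 205986 to 1097709 counts per library, and intervals and floors cover counting error only. Every tested member is named with its fit, and counts in all libraries are given for members with at least 10 counts, except where a total is stated. Tested members were checked over alternatives: DESeq2 1.42.0, limma-voom (limma 3.58.1), other scalings and filters, thinned counts, a replicate block and libraries left out. The test was tested on simulated data. A further gene that meets the symbol rule is not reported here and is in no count of members; it stayed in every fit. The members, gene lists and motifs were chosen with earlier results of these data known. Counts per sorted cells, scaling on the geometric mean of the MuSC markers and leaving out Trpm7 cKO replicates 4 and 5 were added after the data were seen. Gene positions came from the GENCODE annotation of GRCm38, which named 49 of the 50 members uniquely, and promoters from RefSeq (GRCm38.p6).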

Additional observations from a re-analysis of the deposited data

Results flagged for a closer look

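Of 36 groups of 5 libraries examined for a value far from the rest, 4 stood out, and chance alone gives about 1 in 20. Ccrl2 was at 12.4 normalized CPM in control replicate 2, where the other control libraries had 2.01 to 3.47, and at 66.2 in Trpm7 cKO replicate 5, where the other cKO libraries had 31.4 to 39.8. Ccl8 had its only control count in replicate 3, at 1.07 normalized CPM against 0 in the others. A lone count among zeros stands apart by construction, so this case is no sign against chance. Ccl8 was also at 60.7 in cKO replicate 5 against 21.9 to 26.5.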

How the results depend on the processing

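Over all alternatives, 346 of 353 values of the 16 tested members kept their direction and their side of the adjusted p. A member that missed the filter in an alternative, as with a minimum count of 30 or in thinned counts, has no value there and is not in that total. The exceptions were Cxcl12 (0.61) and Cxcl1 (0.46), which no longer passed per sorted cells, and Ackr3, which turned to -0.69 per sorted cells and to -0.054 when scaled on the geometric mean of the MuSC markers, and which passed in thinned counts (0.83), without cKO replicate 4 (0.71) and without cKO replicates 4 and 5 (0.76). Counts of calls also differed, as did the numbers of members tested. DESeq2, which changes both the test and the filter, called 23 of 27 tested ligands and 4 of 7 tested receptors higher. Over all 13831 genes it tested, 1589 were higher and 440 lower. Without a filter the calls were 22 of 33 and 4 of 15 (1813 and 623 of 21914 genes). A minimum count of 30 gave 8 of 8 and 0 of 1 (325 and 148 of 4357). Thinning to the smallest library gave 7 of 7 and 0 of 1 (294 and 148 of 3914). In both of these settings the receptor tested was Ackr3. Over all 7753 genes, the adjusted p alone gave 1908 and 1866, and a log2 fold change beyond 1 gave 1144 and 782. Counts per sorted cells gave 203 and 2461 of the same genes and the geometric MuSC scaling 395 and 738. Leaving out cKO replicates 4 and 5 gave 830 and 432 of 8780. With each library left out in turn, 13 to 16 ligands and 2 receptors were called higher and 0 lower. In these fits 7331 to 8512 genes were tested, of which 677 to 824 were higher and 244 to 416 lower. Both numbers were highest without cKO replicate 4. Without cKO replicates 4 and 5, Cxcl12 fell just under the fold threshold at 1.49, and without a filter Cxcl1 did at 1.42. The replicate numbers did not pair the libraries (correlations of same-numbered libraries -0.118 to 0.181, 1 of 5 best with its own number), and a replicate block kept 13 ligands and 2 receptors, with 645 genes higher and 294 lower in all. Depth limits the members with under 10 counts, for which no difference was detectable.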
